A study of Arabidopsis thaliana with 12 samples.

Results

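The 6 genes described here, LHCB4.2, LHCB4.3, PSAN, PSB27, PRK and SBPASE, are nuclear genes for chloroplast proteins of the light reactions and of carbon fixation. They were taken by name, 1 probe set a gene, from 13356 named genes on Affymetrix ATH1 arrays of Arabidopsis thaliana, and each had 1 probe set. LHCB4.2 (AT3G08940) and LHCB4.3 (AT2G40100) are paralogs that encode CP29, a minor chlorophyll-binding antenna protein between photosystem II and its outer antenna. PSAN (AT5G64040) encodes a lumenal subunit of photosystem I, and PSB27 (AT1G03600) a lumenal protein that takes part in the assembly and repair of photosystem II. PRK (AT1G32060) encodes phosphoribulokinase, which makes the CO2 acceptor of the Calvin cycle. SBPASE (AT3G55800) encodes sedoheptulose bisphosphatase, which acts earlier in the regeneration of that acceptor.

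The arrays came from whole young Col-0 seedlings in 4 groups of 3: light-grown amiR-SNF4, light-grown wild type (WT), dark-grown amiR-SNF4 and dark-grown WT. In the amiR-SNF4 line an inducible artificial microRNA silences SNF4, an activating subunit of the kinase SnRK1. The inducer, 5 µM β-estradiol, was in the medium of all 4 groups, WT included, together with 0.5% sucrose, and the temperature was 22 °C. Seedlings were 5 days old and were taken 4 h into the light period of a day with 8 h of light. Labels of the dark-grown samples repeat that day length, labels of the light-grown samples also give 7 days after sowing, and the light intensity reads 120 in the sample labels and 400 in the series text. No uninduced amiR-SNF4 seedlings and no second line were among the samples, so silencing of SNF4 cannot be told apart from other properties of the line. SNF4 was not among the genes named here, so its own level was not analysed. The titles call the arrays biological replicates, and whether the samples of a group were raised in separate cultures is not stated. Each p-value covers no more than the variation among samples within groups, which the main fit pools over the 4 groups.

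In seedlings raised in darkness, chloroplasts do not mature and chlorophyll is not made, because one step of its synthesis needs light. Many nuclear photosynthesis genes are known to be expressed at a low level in the dark and to be induced by light through photoreceptors. SnRK1 is a plant kinase that responds to low energy and sugar supply, and its targets include regulators of growth, storage and carbon use. CP29 is encoded by 3 genes in Arabidopsis, and LHCB4.3, also called LHCB8, is the divergent one.

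Deposited intensities were quantile-normalized between arrays, and levels below are log2(normalized intensity + 16). Fold changes are on that scale, which understates changes of dim genes. A gene was called at an adjusted p under 0.05 (limma, Benjamini-Hochberg over all 13356 genes). Errors of fold changes are standard errors (SE) of 1 fit over the 12 arrays. Array medians of the deposited intensities ran from 39.4 to 99.5 before normalization. Across all genes the median SD between replicates was 0.146 in light-grown amiR-SNF4, 0.160 in light-grown WT, 0.245 in dark-grown amiR-SNF4 and 0.232 in dark-grown WT. A fit that shares 1 spread per gene thus understates errors in darkness and overstates them in light for a typical gene, and calls from fits of only the 2 groups compared are given beside the main ones. The log2 ratio of 3′ to 5′ GAPDH control probe sets, a sign of RNA integrity, was 0.17 to 0.76 in light-grown amiR-SNF4, 0.41 to 0.64 in light-grown WT, 0.02 to 0.31 in dark-grown amiR-SNF4 and 0.38 to 0.62 in dark-grown WT. It was lower in all 3 dark-grown amiR-SNF4 arrays than in the dark-grown WT arrays. The matching actin ratio overlapped between the genotypes in darkness, at 2.81 to 3.03 in amiR-SNF4 and 2.80 to 3.09 in WT. In light it was 3.02 to 3.33 in amiR-SNF4 and 3.31 to 3.71 in WT, so those ranges barely met. Light-grown WT thus stood above dark-grown WT without overlap, and the amiR-SNF4 ranges met only at 3.02 to 3.03. The part of the actin and GAPDH ratios in the results was not tested.

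LHCB4.2 was lower in amiR-SNF4 in both growth conditions. Its log2 level was 8.73, 8.63 and 8.49 in light-grown amiR-SNF4, against 9.79, 9.63 and 9.51 in light-grown WT. In darkness it was 9.15, 10.16 and 9.34 in amiR-SNF4, against 11.42, 11.92 and 11.76 in WT. The genotypes did not overlap in either condition, and dark-grown WT stood above every other array. In light-grown seedlings the fall of LHCB4.2 was called (log2 fold change -1.03 ± 0.23, adjusted p = 0.00608, limma). In darkness LHCB4.2 fell by 2.15 ± 0.23 (adjusted p = 9.1e-06). The fall in darkness was 4.44-fold and ranked 114 of 13356 from the largest fall.

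LHCB4.3, the other CP29 gene, behaved differently in light. Its log2 level was 8.15, 7.94 and 8.31 in light-grown amiR-SNF4, against 6.58, 6.66 and 6.75 in light-grown WT. In darkness the values were 6.58, 6.41 and 6.35 in amiR-SNF4 and 6.86, 6.85 and 6.92 in WT. Light-grown amiR-SNF4 was above all other groups, whose 9 arrays lay within a narrow band. LHCB4.3 rose 2.77-fold in light (log2 fold change 1.47 ± 0.13, adjusted p = 4.37e-06, limma). In darkness it was lower by a small amount, -0.43 ± 0.13 (adjusted p = 0.0238), and that call was lost in a fit of the dark-grown groups alone (adjusted p = 0.0759). In the deposited intensities, before any normalization, LHCB4.3 read 240.8 to 383.9 in light-grown amiR-SNF4 and 74.3 to 132.7 in light-grown WT. The dark-grown arrays read 57.3 to 65.4 in amiR-SNF4 and 63.0 to 97.1 in WT, and these ranges overlap. Leaving out 1 dark-grown array also ended the darkness call in 4 of 6 cases, with adjusted p-values of 0.0584 without amiR-SNF4 replicate 2, 0.0756 without amiR-SNF4 replicate 3, 0.0514 without WT replicate 2 and 0.0567 without WT replicate 3.

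**Figure D1:**
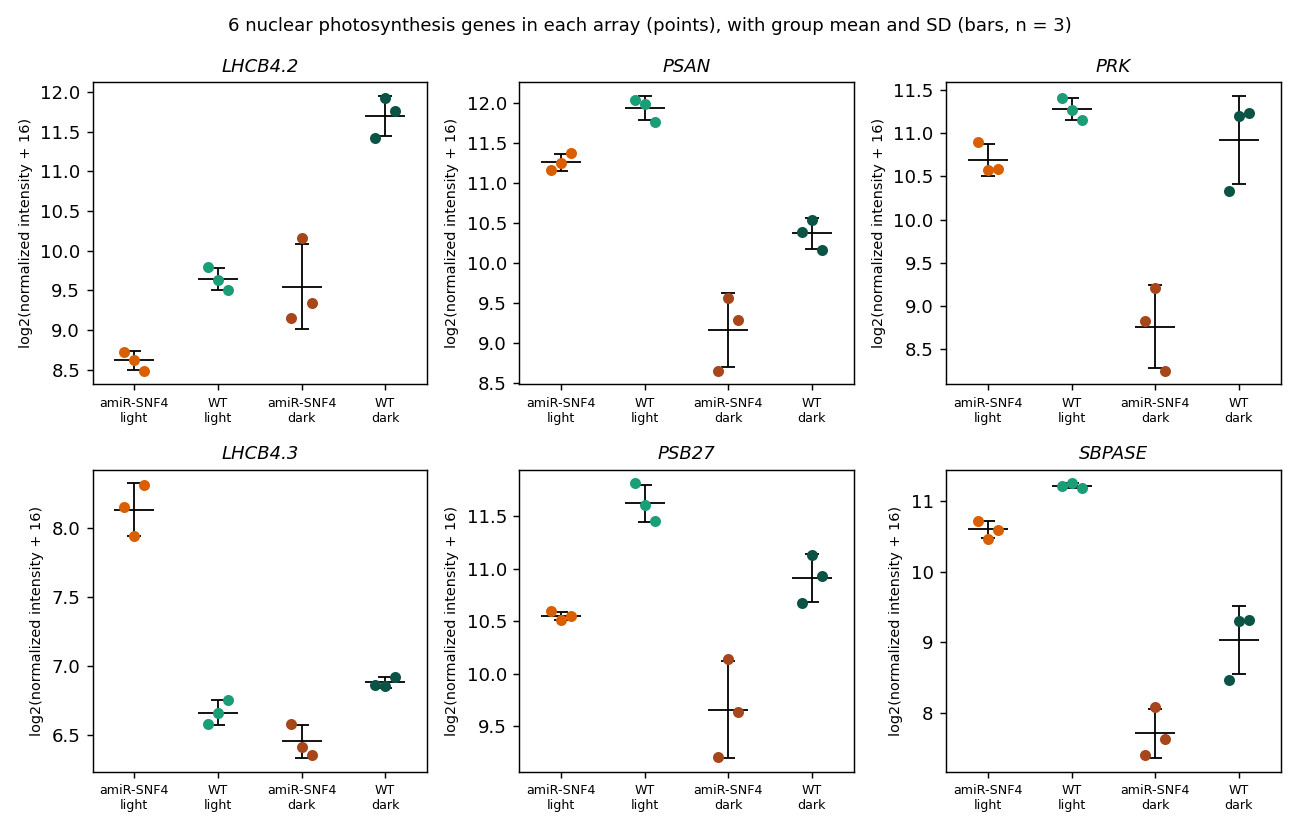
Level of each of the 6 genes, as log2(normalized intensity + 16), in every array of the 4 groups. Points are arrays, and bars are the group mean and SD (n = 3). Light-grown amiR-SNF4 is the highest group for LHCB4.3 alone, at 7.94 to 8.31, and dark-grown WT is the highest group for LHCB4.2 alone, at 11.42 to 11.92.

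The photosystem subunit genes PSAN and PSB27 were lower in amiR-SNF4 in both conditions. PSAN had log2 levels of 11.16, 11.25 and 11.38 in light-grown amiR-SNF4, against 12.04, 11.99 and 11.77 in light-grown WT. In darkness PSAN was at 8.65, 9.56 and 9.28 in amiR-SNF4, against 10.39, 10.54 and 10.16 in WT. All 3 amiR-SNF4 arrays lay below the WT arrays in each condition, and both light-grown groups lay above both dark-grown groups. In the deposited intensities the dark-grown genotypes overlapped for PSAN, at 312.1 to 701.3 in amiR-SNF4 and 608.1 to 1518 in WT. PSAN fell by 0.67 ± 0.20 in light (adjusted p = 0.0344, limma) and by 1.2 ± 0.20 in darkness (adjusted p = 0.000486). The call in light was lost in 5 of the 6 fits that left out 1 light-grown array, with adjusted p-values of 0.108 and 0.0923 without amiR-SNF4 replicates 1 and 2, 0.0616 without amiR-SNF4 replicate 3, and 0.107 and 0.104 without WT replicates 1 and 2.

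PSB27 was at 10.60, 10.51 and 10.55 in light-grown amiR-SNF4, against 11.81, 11.61 and 11.45 in light-grown WT. In darkness PSB27 was at 9.21, 10.14 and 9.64 in amiR-SNF4, against 10.67, 11.13 and 10.93 in WT. The genotypes did not overlap in either condition. Light-grown amiR-SNF4 lay below dark-grown WT by 0.35 on average, but above it by 0.74 with hybridization controls and by 0.10 without normalization, and the deposited intensities overlapped, at 1572.4 to 1971.3 in light-grown amiR-SNF4 and 1071.2 to 2301.8 in dark-grown WT. PSB27 fell by 1.07 ± 0.21 in light (adjusted p = 0.00255, limma) and by 1.24 ± 0.21 in darkness (adjusted p = 0.000444). The fall in light ranked 272 of 13356, against 969 for PSAN.

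The Calvin cycle genes PRK and SBPASE were lower in dark-grown amiR-SNF4, and in light neither was called in the main fit over all 12 arrays. PRK was at 10.90, 10.57 and 10.58 in light-grown amiR-SNF4, against 11.41, 11.27 and 11.15 in light-grown WT. In darkness PRK was at 8.83, 9.21 and 8.25 in amiR-SNF4, against 10.33, 11.20 and 11.23 in WT. Dark-grown amiR-SNF4 stood below the other 3 groups, which lay close together and partly overlapped. PRK fell 4.45-fold in darkness (-2.15 ± 0.26, adjusted p = 3.15e-05, limma). In light the log2 fold change was -0.59 ± 0.26 (adjusted p = 0.146), and -0.59 with adjusted p = 0.0130 in the fit of the light-grown groups alone.

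SBPASE was at 10.72, 10.47 and 10.59 in light-grown amiR-SNF4, against 11.22, 11.25 and 11.19 in light-grown WT. In darkness SBPASE was at 7.41, 8.09 and 7.63 in amiR-SNF4, against 8.47, 9.30 and 9.32 in WT. No genotype ranges overlapped, and growth condition separated the groups by more than genotype did. SBPASE fell 2.5-fold in darkness (-1.32 ± 0.22, adjusted p = 0.000509, limma). In light the log2 fold change was -0.63 ± 0.22 (adjusted p = 0.0716), with adjusted p = 0.0038 in the fit of the light-grown groups alone. Scaling to array medians also gave a call for SBPASE in light (-0.79, adjusted p = 0.0193), and scaling to hybridization controls did not (-0.64, adjusted p = 0.2).

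In all, of the 6 genes 1 rose and 3 fell in light, where 19.1% of all genes were called, 9.14% higher and 9.95% lower. In darkness 6 of 6 fell and none rose, where 30.8% of all genes were called, 14.3% higher and 16.5% lower. Without normalization between arrays 4 of the 6 were called in darkness, with PSAN at -1.08 (adjusted p = 0.0556) and LHCB4.3 at -0.36 (adjusted p = 0.38) losing their calls. Fits of only the 2 groups compared called 1 gene higher and 5 lower in light, where they called 26.5% of all genes, 12% higher and 14.5% lower. In darkness such fits called 5 lower and none higher, where they called 22.2% of all genes, 10.6% higher and 11.5% lower. The adjusted p-values of those 5 (limma) were 0.00113 for LHCB4.2, 0.0022 for PRK, 0.00972 for PSB27, 0.0102 for PSAN and 0.0117 for SBPASE. The arrays of the 2 genotypes did not overlap for any of the 6 genes in light, with 5 lower and 1 higher, where 40.4% of all genes did not overlap, 22.8% lower and 17.6% higher. In darkness all 6 were lower without overlap after quantile normalization, where 37% of all genes did not overlap, 19.9% lower and 17.2% higher. Without normalization and with hybridization controls, the dark-grown genotypes overlapped for PSAN and LHCB4.3. The median log2 fold change of the 6 genes was -0.65 in light and -1.28 in darkness, against -0.03 over all genes in each condition. The genes were chosen with earlier results of these data known, so these counts and medians are a description. Scaling to hybridization controls, RNAs added in equal amount, in place of quantile normalization, left 1 of the 6 genes called in light, LHCB4.3. The fold changes moved little under that scaling, to -0.95 for LHCB4.2, -0.66 for PSAN and -1.05 for PSB27. In whole seedlings, fewer cells that express a gene and less RNA per cell cannot be told apart.

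**Figure D2:**
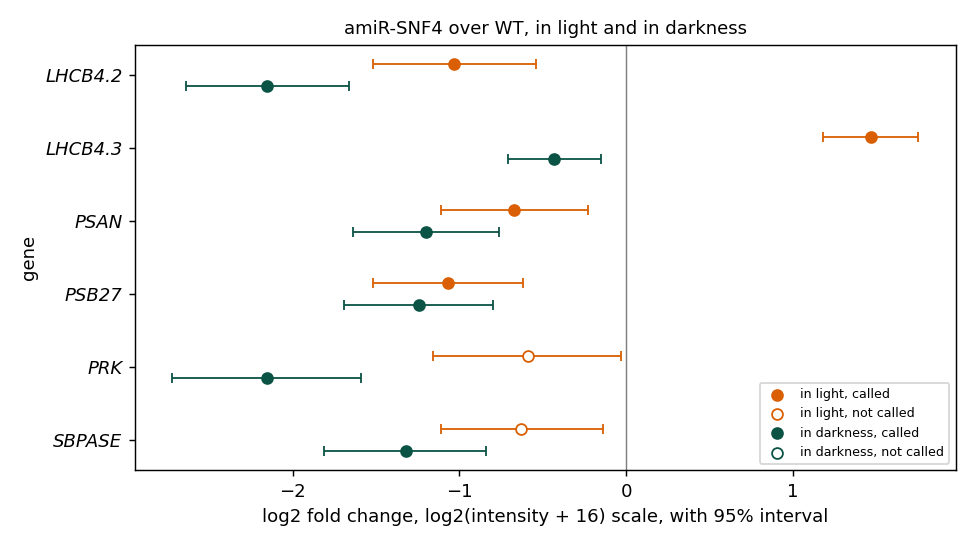
Log2 fold change of amiR-SNF4 over WT for the 6 genes, in light and in darkness, on the log2(intensity + 16) scale, with 95% intervals of the fit (n = 3 arrays a group). Filled points were called and open points were not. LHCB4.3 in light, at 1.47, is the 1 value above 0, and the darkness values run from -2.15 to -0.43.

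The difference between the amiR-SNF4 line and WT changed with growth condition for 2 of the 6 genes, LHCB4.3 and PRK, both with a higher value in light, where 7.98% of all genes differed, 4.07% higher and 3.92% lower. The contrast, amiR-SNF4 over WT in light minus the same in darkness, was 1.90 ± 0.19 for LHCB4.3 (adjusted p = 5.44e-05, limma), from a rise in light and a small fall in darkness. For PRK it was 1.56 ± 0.37 (adjusted p = 0.0204), since its fall was smaller in light. LHCB4.2 just missed the threshold at 1.12 ± 0.32 (adjusted p = 0.0506, 95% interval 0.43 to 1.82). SBPASE had a difference of 0.70 (95% interval 0.01 to 1.38), PSAN of 0.53 (-0.09 to 1.15) and PSB27 of 0.17 (-0.46 to 0.81), none of them called. The call of PRK was lost without dark-grown WT replicate 2 (adjusted p = 0.0536), light-grown amiR-SNF4 replicate 1 (0.0584) and light-grown WT replicate 3 (0.0546). Without dark-grown WT replicate 1, in which PRK and SBPASE were lowest of their group, 4 of the 6 genes were called, with LHCB4.2 at 1.26 (adjusted p = 0.0399) and SBPASE at 0.98 (adjusted p = 0.0343).

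The CP29 genes were set against each other within each array, a comparison that shows unequal change and not which transcript is more abundant. LHCB4.3 minus LHCB4.2, in log2 units, was -0.57, -0.69 and -0.18 in light-grown amiR-SNF4, against -3.21, -2.97 and -2.76 in light-grown WT. In darkness it was -2.58, -3.75 and -2.99 in amiR-SNF4, against -4.57, -5.07 and -4.84 in WT. The shift towards LHCB4.3 in amiR-SNF4 was 2.5 in light and 1.72 in darkness, in 3 of 3 arrays each time. Its exact two-sided permutation p was 0.10 in each condition (n = 3 against 3), which is the smallest p this design allows. In light LHCB4.3 was higher and LHCB4.2 lower, so both added to the shift, while in darkness both were lower and LHCB4.2 by more (-2.15, against -0.43 for LHCB4.3).

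LHCB4.1 (AT5G01530), the third CP29 gene, gave a middle point. Its log2 level was 11.60, 12.08 and 11.99 in light-grown amiR-SNF4 and 12.52, 12.10 and 11.88 in light-grown WT. In darkness it was 10.65, 11.44 and 10.73 in amiR-SNF4 and 11.41, 12.02 and 11.87 in WT. The genotypes overlapped in both conditions. The log2 fold change was -0.28 ± 0.24 in light (adjusted p = 0.533, limma) and -0.82 ± 0.24 in darkness (adjusted p = 0.0203). With the dark-grown groups fitted alone, the darkness value had an adjusted p of 0.0577. LHCB4.2 minus LHCB4.1 averaged -3.27 ± 0.34 in light-grown amiR-SNF4 and -2.52 ± 0.19 in light-grown WT (SD, n = 3 each). It averaged -1.39 ± 0.11 in dark-grown amiR-SNF4 and -0.07 ± 0.07 in dark-grown WT. None of these 4 groups overlapped with another, so LHCB4.2 changed unequally to LHCB4.1 with both genotype and growth condition. LHCB4.3 minus LHCB4.1 was higher in light-grown amiR-SNF4 than in light-grown WT without overlap, by 1.74, and overlapped between the genotypes in darkness.

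**Figure D3:**
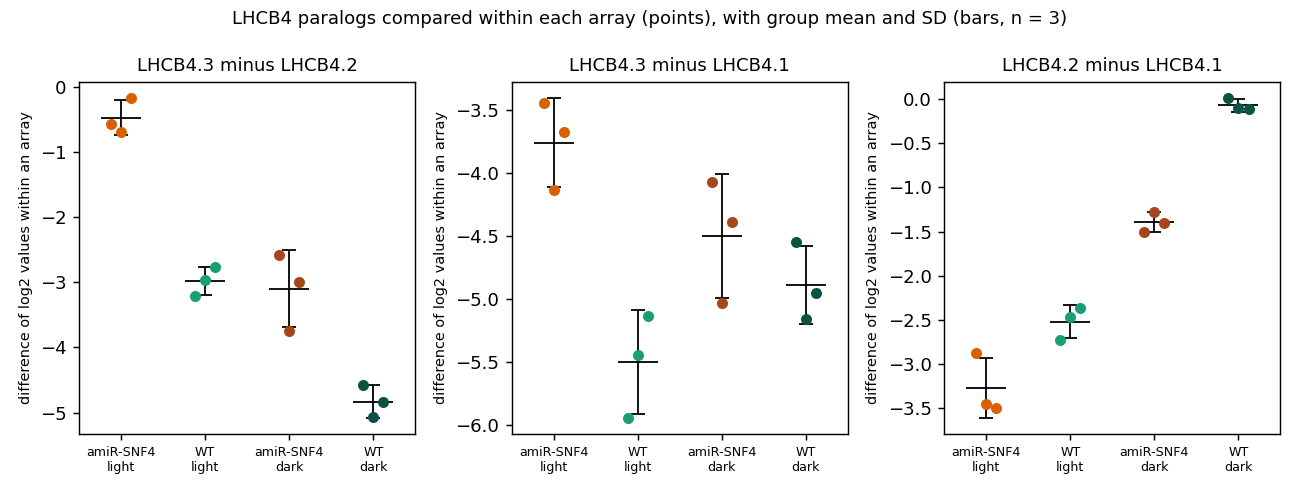
Differences between the log2 levels of CP29 genes within each array, for LHCB4.3 minus LHCB4.2, LHCB4.3 minus LHCB4.1 and LHCB4.2 minus LHCB4.1. Points are arrays, and bars are the group mean and SD (n = 3). LHCB4.3 minus LHCB4.2 averages -0.48 in light-grown amiR-SNF4, -2.98 in light-grown WT, -3.10 in dark-grown amiR-SNF4 and -4.83 in dark-grown WT.

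The 6 genes did not share 1 response to light. In amiR-SNF4, 5 of them were higher in light than in darkness and LHCB4.2 was lower, where 33.6% of all genes were called, 17.7% higher and 15.9% lower. In WT, PSAN, PSB27 and SBPASE were higher in light and LHCB4.2 was lower, where 34.9% of all genes were called, 18.4% higher and 16.4% lower. Arrays of light-grown and dark-grown amiR-SNF4 did not overlap for any of the 6 genes, where 45.6% of all genes did not overlap, 23.7% higher and 21.9% lower. In WT, PSAN, PSB27 and SBPASE were higher and both CP29 paralogs lower without overlap, where 46% of all genes did not overlap, 23.6% higher and 22.4% lower. Fits of only the 2 groups compared gave the same counts of the 6 genes, 5 higher and 1 lower in amiR-SNF4 (30.9% of all genes called) and 3 higher and 1 lower in WT (33.2%). SBPASE rose in light by 2.89 ± 0.22 in amiR-SNF4 (adjusted p = 1.41e-06, limma) and by 2.19 ± 0.22 in WT (adjusted p = 1.03e-05). These rises ranked 32 of 13356 in amiR-SNF4 and 95 in WT. PSAN rose by 2.1 ± 0.20 in amiR-SNF4 and by 1.57 ± 0.20 in WT. PSB27 rose by 0.89 ± 0.21 in amiR-SNF4 (adjusted p = 0.00479) and by 0.72 ± 0.21 in WT (adjusted p = 0.0163). The WT call of PSB27 was lost without dark-grown WT replicate 1 (adjusted p = 0.0662) or light-grown WT replicate 1 (0.0669).

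PRK and both CP29 paralogs differed from that order. PRK was higher in light by 1.92 ± 0.26 in amiR-SNF4 (adjusted p = 0.000108, limma), while in WT the difference was 0.36 ± 0.26 (adjusted p = 0.328, 95% interval -0.20 to 0.93). LHCB4.3 was higher in light by 1.69 ± 0.13 in amiR-SNF4 (adjusted p = 1.41e-06), while in WT it was at -0.21 ± 0.13 (adjusted p = 0.25). The light effect on LHCB4.2 was -0.93 ± 0.23 in amiR-SNF4 (adjusted p = 0.0064) and -2.06 ± 0.23 in WT (adjusted p = 1.81e-05), where its fall ranked 137 of 13356. In the deposited intensities LHCB4.2 averaged 984.7 ± 237.1 in light-grown WT and 3025.7 ± 1054.0 in dark-grown WT (SD, n = 3 each). The differences between genotypes in these light effects are the same contrast as above, called for LHCB4.3 and PRK.

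These light effects depend on how arrays of light-grown and dark-grown seedlings are put on 1 scale. Hybridization controls, added in equal amount to each sample, read lower on light-grown arrays (mean log2 intensity 8.72 to 9.28) than on dark-grown arrays (9.40 to 9.75). Scaling to them raised the median light effect of all genes to 0.62 in amiR-SNF4 and 0.54 in WT, against -0.01 in each with quantile normalization. LHCB4.2 in amiR-SNF4 then stood at 0.06, below the shift of the median gene, and without normalization its call was lost too (-0.61, adjusted p = 0.184). LHCB4.3 in WT then stood at 0.63 (adjusted p = 0.00885, limma), close to the shift of the median gene. PRK in WT stood above that shift, at 1.48 (adjusted p = 0.00197).

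**Figure D4:**
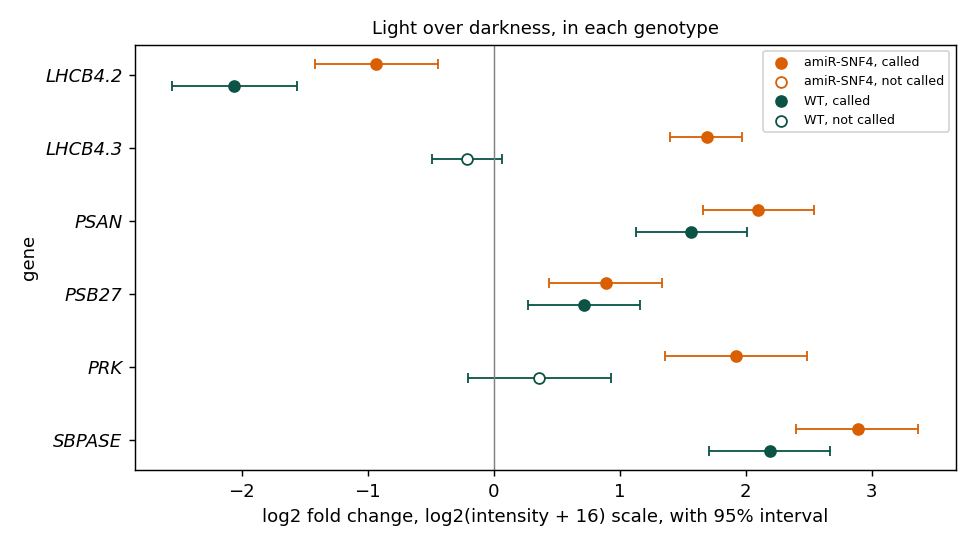
Log2 fold change of light over darkness for the 6 genes in amiR-SNF4 and in WT, on the log2(intensity + 16) scale, with 95% intervals of the fit (n = 3 arrays a group). Filled points were called and open points were not. LHCB4.2 lies below 0 in both genotypes, at -0.93 in amiR-SNF4 and -2.06 in WT, and PRK and LHCB4.3 are open points in WT.

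The order of the 4 groups, which sets light-grown against dark-grown arrays and so depends on scaling, is given first for quantile normalization. PSAN and SBPASE had the same order, from light-grown WT down through light-grown amiR-SNF4 and dark-grown WT to dark-grown amiR-SNF4, with no overlap between neighbours. PSB27 had dark-grown WT above light-grown amiR-SNF4, again with no overlap between neighbours. PRK followed the order of PSB27, but the first 3 of its groups overlapped with their neighbours and only dark-grown amiR-SNF4 stood apart. LHCB4.2 ran from dark-grown WT through light-grown WT and dark-grown amiR-SNF4, which overlapped, to light-grown amiR-SNF4. For LHCB4.3 the order was light-grown amiR-SNF4, dark-grown WT, light-grown WT and dark-grown amiR-SNF4, with no overlap but with the nearest arrays of light-grown WT and dark-grown amiR-SNF4 both at 6.58 after rounding. Scaling to array medians gave the same order for all 6 genes, but light-grown WT and dark-grown amiR-SNF4 then overlapped for LHCB4.3. With hybridization controls only PSAN and SBPASE kept their order, and PSB27 and PRK took that order too, with light-grown amiR-SNF4 above dark-grown WT by 0.74 for PSB27 and by 0.87 for PRK. Under that scaling the lowest groups of LHCB4.2, and the middle groups of LHCB4.3, changed places. Without normalization LHCB4.2 kept its order as well, and the other 3 genes did not. With hybridization controls and without normalization, the dark-grown groups of PSAN and of LHCB4.3 overlapped, as did the amiR-SNF4 groups of LHCB4.2. The group means spanned 3.51 for SBPASE, 3.08 for LHCB4.2, 2.77 for PSAN, 2.52 for PRK, 1.96 for PSB27 and 1.69 for LHCB4.3, in log2 units.

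The enzymes PRK and SBPASE changed unequally with growth condition and, in darkness, with genotype. Their Pearson's r was 0.84 over the 12 arrays and 0.81 with group means removed. PRK minus SBPASE within an array was 0.18, 0.10 and -0.01 in light-grown amiR-SNF4 and 0.19, 0.02 and -0.03 in light-grown WT. In darkness it was 1.42, 1.12 and 0.62 in amiR-SNF4 and 1.86, 1.90 and 1.91 in WT. The genotypes overlapped in light, whereas in darkness all 3 amiR-SNF4 arrays were lower, by 0.83 on average. PSAN minus PSB27 overlapped between genotypes in darkness, with means of -0.50 ± 0.12 in amiR-SNF4 and -0.54 ± 0.25 in WT (SD, n = 3 each). In light it averaged 0.71 ± 0.14 in amiR-SNF4 and 0.31 ± 0.07 in WT, with no overlap.

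With the 4 groups pooled, replicates deviated together for most pairs of genes. Over the 12 arrays, with group means removed, Pearson's r had a median of 0.76 for the 10 pairs without LHCB4.3, from 0.07 for PSAN with PRK to 0.94 for LHCB4.2 with PSB27. The 5 pairs with LHCB4.3 had r between -0.42 and 0.13. Dark-grown amiR-SNF4 replicate 2 was the highest of its group for 5 of the 6 genes, and dark-grown WT replicate 1 the lowest of its group for 4. The dark-grown arrays weigh most in r, since the median SD of the 6 genes was 0.46 and 0.24 there. In the light-grown groups it was 0.12 and 0.13. In light-grown amiR-SNF4, LHCB4.2 fell from replicate 1 to 3 (8.73, 8.63 and 8.49) while PSAN rose (11.16, 11.25 and 11.38). These points share arrays and their normalization, no r of other gene pairs was taken as a background, and r is given as a description.

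Other genes with the most similar pattern over the 12 arrays were found by Pearson's r, 3 for each gene, as a description in which 4 groups of 3 carry most of the likeness. LHCB4.2 was most like AKINBETA1, a gene of a SnRK1 beta subunit (r = 0.994), bHLH121 (0.990) and AT3G07310 (0.986). LHCB4.3 was most like AT3G04210 (0.965), AT1G76960 (0.949) and AT1G73600 (0.947). PSAN was most like AT2G04700 (0.996), AT3G12870 (0.995) and NdhL, a subunit gene of the chloroplast NADH dehydrogenase-like complex (0.995). SBPASE shared NdhL (0.989), after AT2G44640 (0.992) and AT3G13120 (0.991). PSB27 was most like AT3G61080 (0.991), AT5G27400 (0.989) and AT5G02160 (0.985). PRK was most like AT1G11860 (0.984), HPR, a hydroxypyruvate reductase gene (0.973), and AT1G67870 (0.972).

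Of 85 listed nuclear genes of the photosystems, Calvin cycle, electron carriers and chloroplast ATP synthase, 15 were analysed here, the 6 genes and 9 others. Of the 9 others, 2 fell and none rose in light, near the background of 9.95% lower and 19.1% called in all. In darkness 8 fell and none rose, where 16.5% of all genes fell. Fits of only the 2 groups compared gave 4 lower in light (background 14.5%) and 3 lower in darkness (background 11.5%). Their median log2 fold change was -0.28 in light and -0.82 in darkness. LPA19, a Psb27 homologue, fell by 1.36 ± 0.26 in light (adjusted p = 0.00209, limma) and by 1.61 ± 0.26 in darkness (adjusted p = 0.000309). AT5G64380, listed with the Calvin cycle, fell by 0.76 ± 0.17 in light and by 0.89 ± 0.17 in darkness. AT1G56190, listed there too, was the 1 gene above 0, at 0.43 ± 0.17 in light (adjusted p = 0.116) and 0.33 ± 0.17 in darkness (adjusted p = 0.189).

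Among the remaining 6 genes, all were called lower in darkness and none was called in light in the fit over all arrays. PSAE-1, a stromal subunit gene of photosystem I, was at -0.56 ± 0.21 in light and -0.62 ± 0.21 in darkness. The small photosystem II subunit genes stood at -0.24 (PSBW) and -0.41 (PSBY) in light, and at -0.75 (PSBW) and -0.99 (PSBY) in darkness. RCA, the Rubisco activase gene, was at -0.23 ± 0.19 in light and -0.63 ± 0.19 in darkness. ATPC1, for the gamma subunit of the chloroplast ATP synthase, was at -0.26 ± 0.25 in light and -1.03 ± 0.25 in darkness, and LHCB4.1 is described above. Fitted on the dark-grown groups alone, 5 of these 6 lost their call in darkness, with adjusted p-values of 0.133 for PSAE-1, 0.111 for PSBW, 0.0897 for PSBY, 0.104 for RCA and 0.0577 for LHCB4.1. Fitted on the light-grown groups alone, PSAE-1 and PSBY were called lower in light, with adjusted p-values of 0.00705 for PSAE-1 and 0.0317 for PSBY. The darkness count of the 9 fell to between 3 and 5 when any 1 of dark-grown amiR-SNF4 replicates 1 and 3 or dark-grown WT replicates 2 and 3 was left out. Without normalization between arrays it was 4, and with hybridization control scaling 3.

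**Figure D5:**
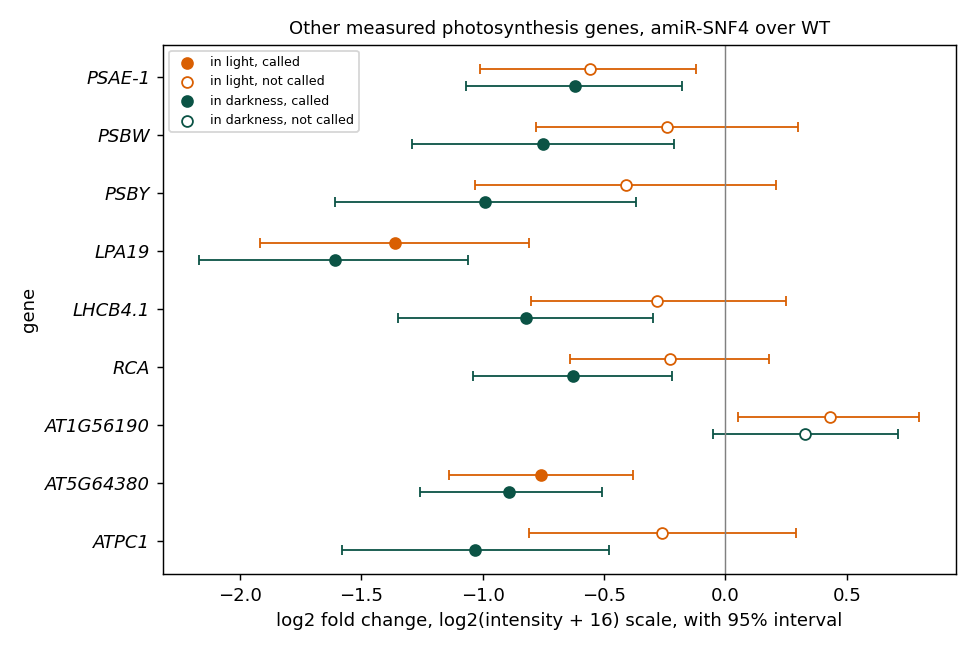
Log2 fold change of amiR-SNF4 over WT for the 9 other listed genes, in light and in darkness, on the log2(intensity + 16) scale, with 95% intervals of the fit (n = 3 arrays a group). Filled points were called and open points were not. LPA19 and AT5G64380 are filled in both conditions, and AT1G56190 alone lies above 0.

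In the light comparison within each genotype, 8 of the 9 others were higher in amiR-SNF4 (background 17.7%) and 7 in WT (background 18.4%), and none was lower. With hybridization controls most called genes were higher in light, 94.8% in amiR-SNF4 and 93.8% in WT. RCA rose by 2.1 ± 0.19 in amiR-SNF4 and by 1.70 ± 0.19 in WT, and AT1G56190 by 1.57 ± 0.17 in amiR-SNF4 and by 1.47 ± 0.17 in WT. LHCB4.2 was thus the 1 gene of the 15 called lower in light. Of 10 listed transcription factor genes of photosynthesis and light growth, HYH, the HY5 homologue, was the 1 analysed here. It was at 0.27 ± 0.27 in light (adjusted p = 0.611, limma) and 0.60 ± 0.27 in darkness (adjusted p = 0.123) for amiR-SNF4 over WT, and without dark-grown amiR-SNF4 replicate 1 the darkness value was 0.93 (adjusted p = 0.00984). For light over darkness HYH was called lower in amiR-SNF4 (-1.05 ± 0.27, adjusted p = 0.00976) and not called in WT (-0.71 ± 0.27, adjusted p = 0.0611). The amiR-SNF4 call was lost with hybridization controls (-0.20, adjusted p = 0.669) and without normalization (-0.73, adjusted p = 0.197). In a fit of the WT groups alone the WT value was called (adjusted p = 0.0468).

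Between genotypes, few plastid-encoded subunit genes of the photosystems were called, near or below the background. Of 20 psa and psb genes of the plastid genome, 2 fell and none rose in light, where 9.95% of all genes fell, and 2 fell and none rose in darkness, where 16.5% fell, with median log2 fold changes of -0.34 in light and -0.10 in darkness. For light against darkness, 7 of the 20 were higher and 2 lower in WT, where 34.9% of all genes were called, 18.4% higher and 16.4% lower. In amiR-SNF4, 6 were higher and 4 lower, where 33.6% were called, 17.7% higher and 15.9% lower. This list was drawn up after values were seen. The difference between nuclear and plastid genes was not tested, and how the labelling reads plastid RNA was not tested.

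Markers of seedling parts and stages are given beside these results. Markers outside the named genes could not be analysed here. Of 7 root markers 3 were analysed. Their summed intensities were 4090 to 4440 in light-grown amiR-SNF4, 4990 to 6410 in light-grown WT, 3840 to 6050 in dark-grown amiR-SNF4 and 4400 to 5840 in dark-grown WT. The genotypes did not overlap in light and overlapped in darkness, where 1 of the 3 markers, EXPA18, fell by 1.12 on the log2 scale (adjusted p = 0.00101, limma). Of 10 seed reserve markers 3 were analysed, with sums of 74.5 to 85.4 in light-grown amiR-SNF4, 14.8 to 90.3 in light-grown WT, 2740 to 5200 in dark-grown amiR-SNF4 and 3050 to 5160 in dark-grown WT. They were far higher in darkness in both genotypes. PORB, a chlorophyll synthesis gene and the 1 of 4 etiolation markers analysed, was at 398 to 443 in light-grown amiR-SNF4, 719 to 778 in light-grown WT, 1310 to 2460 in dark-grown amiR-SNF4 and 1800 to 3750 in dark-grown WT. PORB was lower in light than in darkness without overlap in either genotype. Between genotypes PORB fell by 0.81 in light-grown amiR-SNF4 (adjusted p = 0.0495, limma) and was at -0.74 in darkness (adjusted p = 0.0501). Of the seed reserve markers ICL rose by 1.3 in light-grown amiR-SNF4 (adjusted p = 0.0244), which the overlapping sums do not show. No summed level was at 0, and the part of cell makeup or seedling stage in the results was not tested.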

How the data were processed

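Biotin-labelled cRNA from total RNA of 12 seedling samples was read on Affymetrix ATH1 arrays. The deposited values were linear intensities, 1 per probe set, from GCOS per the submitters' processing notes. How GCOS scaled each array was not stated. Detection calls were not used, so signal over background was unknown for single values, and the number of arrays limits precision. Of 22810 probe sets, 64 controls were set aside, and the other 22746 were quantile-normalized on the log2 scale before log2(intensity + 16) was taken. Those with 1 gene in the platform annotation (13513) gave 13356 genes, the brightest probe set being kept. Another 8730 had no gene name and 503 had several genes, and these gave no named gene. Symbols were updated through a TAIR10.1 gene table, which matched 13286 genes. All arrays were fitted with limma 3.58.1 in R 4.3.3, with group means and 5 contrasts. Sequences and promoters were not used here. The fit was tested on simulated data, where with the unequal spreads of these groups false calls in darkness exceeded the nominal share, and with equal spreads they did not. The genes, lists and tests were chosen with earlier results of these data known. Named were the 6 genes, every other listed gene analysed here and the 3 most similar genes of each of the 6. Alternatives changed the normalization, constant, filter, probe sets, arrays and replicate block.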

Additional observations from a re-analysis of the deposited data

Results flagged for a closer look

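For 2 of the genes described here the difference between the amiR-SNF4 line and WT changed with growth condition, by limma's test of that change. LHCB4.3 had a difference, amiR-SNF4 over WT in light minus the same in darkness, of 1.90 on the log2 scale (adjusted p = 5.44e-05), with the group means at 8.13 in light-grown amiR-SNF4, 6.66 in light-grown WT, 6.45 in dark-grown amiR-SNF4 and 6.88 in dark-grown WT. PRK had a difference of 1.56 (adjusted p = 0.0204), with group means of 10.69 in light-grown amiR-SNF4, 11.28 in light-grown WT, 8.76 in dark-grown amiR-SNF4 and 10.92 in dark-grown WT. The LHCB4.3 call held in all 12 fits that left out 1 array, with adjusted p-values from 0.000103 to 0.000368. For PRK these ran from 0.00416 to 0.0584.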

How the results depend on the processing

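Of 654 values of the 6 genes under the alternatives, 607 kept their direction and their side of the threshold, 27 lost a call, 15 gained one and 5 changed sign. The share kept is not a measure of stability, since some alternatives could not move a fold change. Each of the 6 genes had 1 probe set, so averaging probe sets left their levels as they were. Leaving out an array of a group outside a comparison likewise left the fold changes of that comparison as they were. With no normalization between arrays the counts of genes called were 2282 in darkness, against 4113, 1486 in light, against 2550, and 278 for the difference between conditions, against 1066. That setting left 1 of the 6 genes with a called difference, 4 of the 6 called in darkness, and 4 of the 9 other listed genes lower in darkness. Under it, light minus darkness differences turned to -0.11 for PSB27, -0.14 for PSAE-1, -0.15 for AT1G56190 and -0.09 for AT5G64380, and the light effect on LHCB4.3 in WT to 0.29, none of which had been called. Scaling to hybridization controls gave 2546 genes in darkness, 381 for the difference and 7523 for light in amiR-SNF4, against 4493. It left 1 of the 6 genes called in light, 1 with a called difference and 3 of the other 9 lower in darkness. The light effect was then 0.63 for LHCB4.3 in WT and 0.06 for LHCB4.2 in amiR-SNF4. Among called genes the share higher in light was 94.8% in amiR-SNF4 and 93.8% in WT under that scaling. Without normalization it was 77.1% in amiR-SNF4 and 85.5% in WT, and with quantile normalization 52.7% in amiR-SNF4 and 52.9% in WT. For amiR-SNF4 over WT the share higher was 65.3% in light with hybridization controls, against 47.9%, and 57.9% in darkness without normalization, against 46.5%. For the difference it was 31.7% without normalization, against 50.9%. A constant of 1 left 637 genes, 1 of the 6 among them, with a called difference. Fits of only the groups compared gave 3 of the other 9 genes in darkness and 4 in light, and give no value for the difference, which needs all groups. Over all 22746 probe sets, 8161 were called in darkness, 5353 in light, 2364 for the difference, 8778 for light in amiR-SNF4 and 8971 for light in WT, where more features were tested.

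Leaving out 1 array at a time gave 3505 to 3960 genes in darkness, 1865 to 2857 in light, 737 to 1145 for the difference, 3680 to 4731 for light in amiR-SNF4 and 3757 to 4988 for light in WT. The count of the 9 others in darkness ran from 3 to 8, and that of the 6 genes with a called difference from 1 to 4. Differences crossed 0 for genes without a call, from -0.05 to 0.41 for PSB27, -0.17 to 0.21 for PSAE-1 and -0.05 to 0.24 for AT1G56190. The difference of LHCB4.2 was called under 6 alternatives, such as scaling to array medians (adjusted p = 0.0410), and that of PRK was lost without normalization (0.213), with hybridization controls (0.127) and with a constant of 1 (0.0606). With replicate number as a block, 3911 genes were called in darkness, 2345 in light and 902 for the difference, and no call of the 6 genes changed. The shared numbers were not used as pairs in the main fit. Deviations of same-numbered arrays had a median correlation of 0.01 over 18 pairs, from -0.33 to 0.20, with 4 pairs over 0.1. For arrays with different numbers the median was 0 over 36 pairs, from -0.23 to 0.36, with 5 over 0.1. Whether a shared number marks a shared batch or culture was not tested. Where a call changed, the cause was not tested unless named here. With 3 arrays a group the precision is limited, and LHCB4.3 is dim in 3 of the 4 groups.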
